A study of Sus scrofa with 6 samples.

Results

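The first day of life was described by setting the library of day 1 against the library of day 0 (birth), 2 of the 6 single-cell libraries of pig ileum (ages of 0, 1, 3, 7, 14 and 21 days, 1 library per age). The piglets were Large White, born at term, reared with the sow on maternal milk without antibiotics or vaccines, labelled male, and carried no transgene or treatment. The study's methods describe several piglets sampled per age and 1 chip loading per group, so each library is 1 sample in which individual animals cannot be separated. Cells were released from scraped mucosa in chelating buffer followed by a short enzyme digestion, a preparation aimed at the epithelium. The labels name the ileum and the series' design line names the cecum; the markers below do not tell these apart beyond the presence of FABP6, the ileal bile acid-binding protein. Barcodes with at least 1000 UMIs and 500 genes were taken as cells, which left 10836 cells on day 0 and 11494 on day 1, together 22330 of the 76099 cells of the series. Levels are UMIs per 10000, summed over the cells of a library or gate. Because there was 1 library per age, every difference is a difference between these 2 libraries, has no replicate check and no test, and its interval covers counting error only.

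Birth moves the ileum from a sheltered, placentally fed organ to one that meets milk and microbes within hours. The enterocytes of the newborn pig are known for taking up intact milk proteins, antibodies included, into large vesicles and lysosomes, and for assembling dietary fat into chylomicrons. Enteroendocrine cells release peptide hormones in response to food, goblet cells secrete mucus, and the ileal wall holds Peyer's patches, in which pig B cells expand after birth. Neutrophils and monocytes are the first leukocytes to be recruited to an inflamed mucosa, and interferons induce a shared set of antiviral genes in nearly every cell type.

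The libraries were alike in depth, with 89894007 UMIs in total on day 0 and 79642651 on day 1, of which 83.5% and 87.0% lay in cells, and with medians of 3693 and 3835 UMIs per cell. They shared 31 cell barcodes, where 18.3 would be expected by chance, and other pairs of libraries in the series shared 35 to 68. Free RNA, measured in barcodes with at most 100 UMIs, differed: these barcodes held 1460139 UMIs on day 0 and 4700459 on day 1. In free RNA the summed level of 10 epithelial marker genes was 24.4 on day 0 and 15.1 on day 1 and that of goblet and mucus genes 114 and 30.3, whereas lipid absorption genes summed to 50.4 and 77.1 and genes for endocytosis and lysosomal digestion to 29.0 and 39.8. The epithelial marker list summed to 6.36 and 2.26 in B cells and to 10.2 and 2.10 in T cells. With free RNA subtracted the counts of genes at least 2-fold lower went from 174 to 66 in the B gate and from 463 to 465 in the T gate. The subtraction set 26.0 and 15.0% of B gate UMIs and 41.9 and 13.9% of T gate UMIs as free RNA, by the epithelial markers. Of the 463 genes lower in the T gate, 110 were at or above free RNA. Of 6 chromosome Y genes that passed the filter, 4 were at least 2-fold higher on day 1, with ratios of 1.70 to 2.91 over the 6, and EIF1AY, a translation initiation factor gene of that chromosome, stood at 0.229 and 0.475 although the labels name male animals only. The part of the animals' sex in the differences below was not tested.

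Lineages were gated by summed UMIs of defining genes. B cells had at least 2 UMIs of MS4A1, PAX5 and POU2AF1 together and none of CD3E and CD3G. T cells had at least 2 of CD3E and CD3G and none of MS4A1 and PAX5, and epithelial cells had at least 5 of EPCAM, KRT8 and VIL1 and at most 1 of PTPRC. By markers that the rule did not use, the B cell list summed to 14.8 and 15.7 in the B gate and to 0.579 and 0.444 in the T gate, the T cell list summed to 8.08 and 8.82 in the T gate and to 0.732 and 0.673 in the B gate, and the epithelial list summed to 45.0 and 42.6 in the epithelial gate. Myeloid cells (at least 5 UMIs of CSF1R, FCN1, S100A8 and S100A12) and stromal cells (at least 3 of COL1A1, COL3A1 and PDGFRA) were added in the same way. Cells that met more than 1 gate, 92 on day 0 and 50 on day 1, were counted in none.

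Epithelial cells made up a smaller share of the library on day 1 and B cells a larger one. On day 0 the epithelial gate held 2655 cells, or 24.5% of the library (23.7 to 25.3%), and on day 1 it held 964, or 8.39% (7.89 to 8.91%). The B gate held 2222 cells, 20.5% (19.7 to 21.3%), and 3433 cells, 29.9% (29.0 to 30.7%). The T gate differed less, with 1836 cells or 16.9% (16.2 to 17.7%) at birth and 1639 or 14.3% (13.6 to 14.9%) a day later. The myeloid gate held 79 and 603 cells, 0.729 and 5.25%, and the stromal gate 278 and 401, 2.57 and 3.49%. The myeloid gate uses S100A8 and S100A12, which themselves differed between the libraries; a gate on CSF1R, MPEG1, CD68 and C1QA, chosen after seeing the data, gave 1.61% and 4.33%. The cells in no gate were 34.8% and 38.8%, with medians of 2820 and 3077 UMIs. In summed counts, fewer cells of a type and less RNA per cell cannot be told apart. These shares describe the suspensions, in which a changed release of epithelium and a changed tissue cannot be told apart. Epithelial cells of day 1 also carried more UMIs, with a median of 16099.5 UMIs against 9674, and they supplied 26.9% of all UMIs, against 51.4% on day 0. At 2000 UMIs and 800 genes the epithelial difference was 18.9 points and with every cell thinned to 1000 UMIs it was 4.87 points, both lower on day 1. The thinned shares were 6.24% on day 0 and 1.37% on day 1, since fewer cells reach the same cut of 5 UMIs after thinning. In the 4 later libraries the B gate held 69.8, 80.3, 91.1 and 93.0% of cells and the epithelial gate 0.766, 1.42, 0.169 and 0.00724%.

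**Figure D1:**
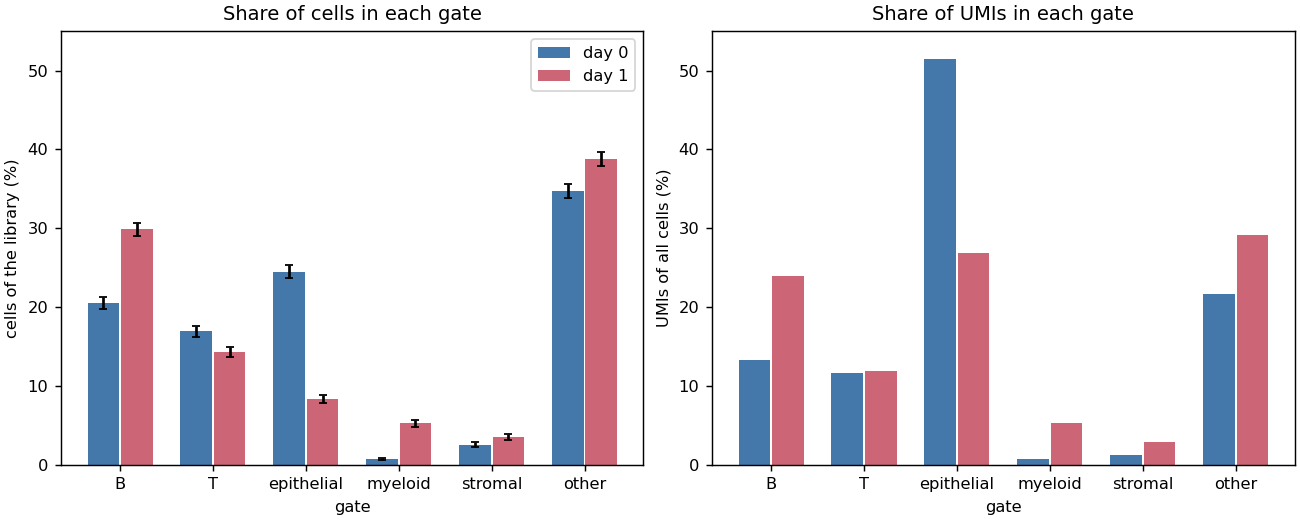
Left, percent of the cells of a library in each gate; right, percent of all UMIs in cells that each gate supplied, for day 0 (blue) and day 1 (red). Bars are single libraries and error bars are exact 95% intervals for counting error. The epithelial share is 24.5% against 8.39% of cells and 51.4% against 26.9% of UMIs, while B, myeloid and stromal shares are higher on day 1.

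Over all cells the genes that differed most were those of neutrophils and inflammatory monocytes, which were close to absent on day 0. S100A9, S100A8 and S100A12, which encode calcium-binding alarmins of these cells, stood at 0.0249, 0.00546 and 0.0113 on day 0 and at 5.82, 1.99 and 3.41 on day 1, ratios of 234, 364 and 301. ARG1 (chromosome 1, 32006035 to 32028983), the arginine-cleaving enzyme arginase, had 4 UMIs in 3 cells on day 0 and 10290 UMIs in 478 cells on day 1. SAA2, an acute-phase apolipoprotein gene, had 6 and 8526 UMIs. IL1B, a pyrogenic cytokine gene, went from 0.0251 to 1.92 (76.5-fold), RETN, which encodes resistin, from 0.0866 to 3.27 (37.8-fold), and G0S2, an inhibitor of triglyceride lipase, from 0.259 to 4.35 (16.8-fold). Chemokine genes followed: CXCL10, an interferon-induced attractant of T cells, from 0.125 to 3.25 (26.0-fold), and CXCL13, the attractant of B cells into follicles, from 0.0237 to 1.14 (48.1-fold). REG3G (chromosome 3, 64847629 to 64850365), a secreted bactericidal lectin gene of the epithelium, went from 0.547 to 9.97 (18.2-fold).

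In all, 327 of the 8265 genes with a mean level of at least 0.1 were at least 2-fold higher on day 1 (3.96%) and 199 were at least 2-fold lower (2.41%). The median log2 ratio was 0.02. Taking the mean over cells instead of the sum turned this split to 211 higher and 250 lower. At 4-fold the counts were 80 and 31. All 16 measured members of the list of inflammatory mediators and alarmins were at least 2-fold higher, with a median log2 ratio of 1.96, as were 23 of 29 interferon-response genes, with a median of 1.70, and no member of either list was 2-fold lower. Of 21 cell cycle genes, 79 cytosolic ribosomal protein genes and 63 nuclear oxidative phosphorylation genes, none passed 2-fold in either direction.

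Among the genes lower on day 1 over all cells were products of endocrine and goblet cells. NTS, which encodes the gut peptide neurotensin, went from 36.6 to 4.96 (7.38-fold lower), SST, which encodes somatostatin, from 8.04 to 1.97 (4.07-fold lower), and CHGA, a granule protein gene of endocrine cells, from 4.47 to 1.05 (4.26-fold lower). REG4, a lectin gene of secretory cells, went from 12.5 to 2.22 (5.61-fold lower) and AGR2, which folds mucins in the endoplasmic reticulum, from 10.1 to 2.54 (3.97-fold lower). RETNLB, a goblet cell product, was 4.39-fold lower, and CCL25, the small-intestinal attractant of CCR9-bearing lymphocytes, went from 3.51 to 0.857 (4.1-fold lower). ADH1C, an alcohol dehydrogenase gene, was 7.15-fold lower and FCN2, which encodes a ficolin, 5.45-fold lower. Of 18 enteroendocrine genes 17 were at least 2-fold lower and of 10 goblet genes 6 were, where 2.41% of all genes were. At or above free RNA these counts were 16 and 3. AGR2 on day 0, at 10.1 against 10.2 in free RNA, lay below it.

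Each all-cell difference was split into a part due to the gates supplying other shares of the UMIs and a part due to other levels within them. For S100A9, ARG1, RETN and IL1B the shares made up 38.4, 36.4, 35.1 and 38.8% of the difference, and the rest was a higher level within gates. The myeloid gate admits cells by S100A8 and S100A12, which themselves differed, so for these genes the split depends on that gate. For REG3G the share part ran against the difference, at -41.1% of it, since epithelial cells supplied fewer UMIs on day 1, and the level within the epithelial gate alone contributed 12.2 of a net difference of 9.42. For NTS the shares made up 20.1%. The split takes each gate as a whole, so a changed share of endocrine cells within the epithelial gate counts as level. Cells of that gate with at least 2 UMIs of CHGA and CHGB were 5.66% of the library on day 0 and 0.992% on day 1. The level part of NTS also holds -1.55 from the B gate, where its 10.1 on day 0 lay below the 23.2 of free RNA. For CXCL10 the largest level part, 1.37 of 3.13, lay in the cells outside every gate.

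**Figure D2:**
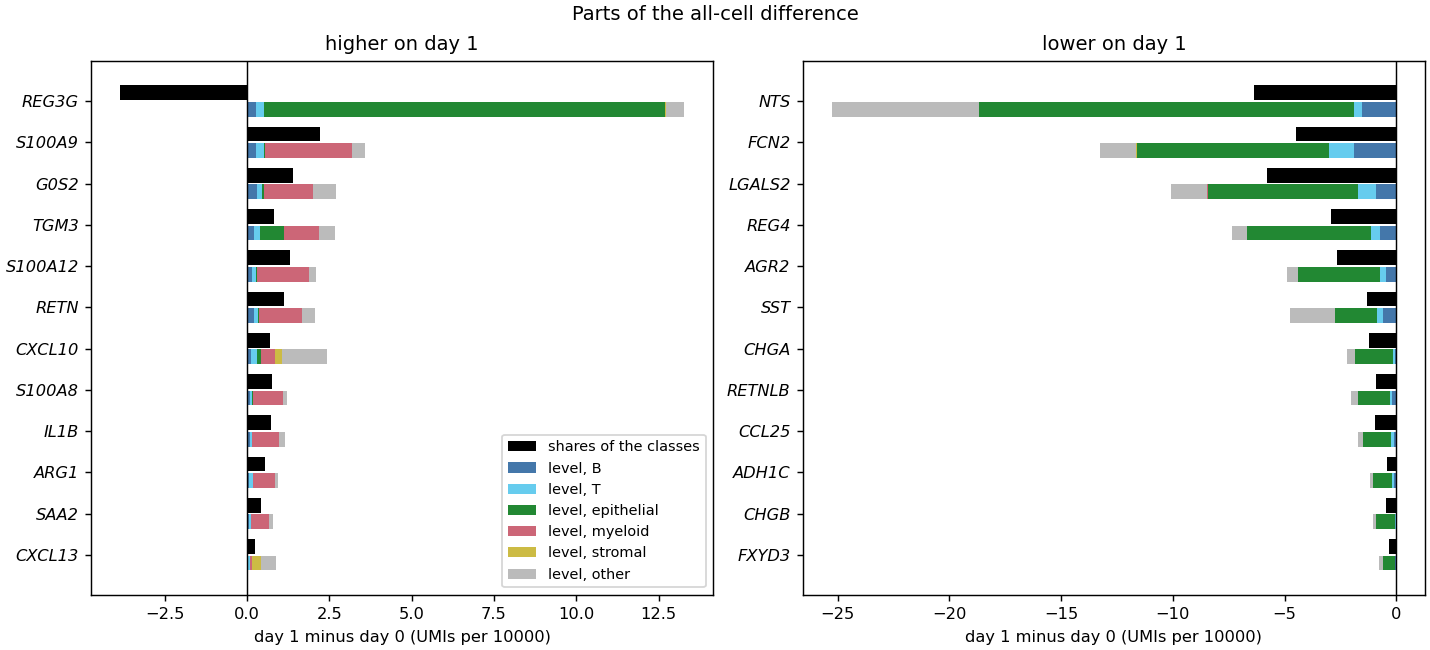
Difference in level over all cells, day 1 minus day 0, in UMIs per 10000, for the genes named over all cells, split into the part from other UMI shares of the gates (black) and the parts from other levels within each gate (coloured). Myeloid levels carry the largest coloured part for S100A9, RETN, IL1B and ARG1, and epithelial levels for REG3G (12.2), NTS and REG4.

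Within the myeloid gate SAA3, S100A9 and IL1B were among the genes higher on day 1, and C1QA, C1QB and most MHC class II genes were lower. Of 6875 genes, 562 were at least 2-fold higher (8.17%) and 1198 at least 2-fold lower (17.4%), with 79 cells behind the values of day 0. SAA3, an acute-phase apolipoprotein gene, had 1 UMI in this gate on day 0 and 50055 on day 1 in 283 cells, a ratio of 7693 with a counting interval of 1381 to 303849. In the epithelial gate the same gene was at 0.989 and 0.966. SAA2 had no UMI here on day 0 and 6423 on day 1, at least 329-fold higher against a floor of 3 counts. The level of S100A9 went from 2.70 to 90.9, of RETN from 0.25 to 43.2 (173-fold) and of IL1B from 1.75 to 28.3 (16.2-fold). SOD2, the mitochondrial superoxide dismutase, went from 1.43 to 33.8 (23.7-fold), and FTH1, the ferritin heavy chain that stores iron, from 91.1 to 476 (5.23-fold). Of 18 inflammatory genes 16 were 2-fold higher, and of 30 interferon-response genes 21 were. S100A8, a gene by which this gate admits cells, had UMIs in 7.59% of its cells on day 0 and 77.4% on day 1. Genes that go with S100A8 in a cell can thus be higher through admission, and that part was not tested.

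Macrophage and dendritic cell genes were lower in the same gate. The complement genes C1QA and C1QB, which mark resident macrophages, went from 113 to 36.4 and from 85.4 to 26.3. Of 10 MHC class II genes, which present peptides to helper T cells, 7 were at least 2-fold lower and none higher, where 17.4% of all genes of the gate were lower: CD74, the invariant chain, went from 135 to 47.9, SLA-DRB1 from 52.2 to 13.6 and SLA-DRA from 72.0 to 35.8. DNASE1L3, a nuclease gene of phagocytes and dendritic cells, went from 16.6 to 3.25 (5.11-fold lower). CXCL14 was 8.09-fold lower, but 65.7% of its UMIs on day 0 lay in 5 cells. The gate admits by S100A8 and S100A12, so a shift in which myeloid cells it holds and a shift in the same cells cannot be told apart.

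Part of the interferon-response list was at least 2-fold higher in every gate examined. These members were 17 of 24 in the B gate (median log2 ratio 1.23), where 1.5% of all genes were higher, and 14 of 27 in the T gate (1.08), where 1.98% were. They were 19 of 24 in the epithelial gate (1.85), against 5.75% of all genes, and 12 of 21 in the stromal gate (1.36), against 6.56%, and none was 2-fold lower in these gates. GBP1, a guanylate-binding protein gene that responds most to interferon-gamma, went from 0.136 to 2.69 in epithelial cells (19.8-fold), from 0.457 to 3.32 in T cells (7.25-fold) and from 0.167 to 1.53 in B cells. MX1, which encodes an antiviral GTPase, went from 0.442 to 1.43 in B cells (3.23-fold), from 0.348 to 1.01 in T cells (2.89-fold) and from 0.103 to 0.746 in epithelial cells (7.27-fold), where it lay below the 0.923 of free RNA on day 1. Free RNA carried these genes as well: its summed level of the list was 15.2 on day 0 and 35.0 on day 1, and the members that were both 2-fold higher and at or above free RNA numbered 9 in each of the B, T and epithelial gates and 5 in the stromal gate. GBP1 in B cells, at 1.53 against 2.16 in free RNA, was also below it. With each cell thinned to 1000 UMIs the T gate count was 13 higher and 2 lower.

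Few inflammatory genes of the lymphocyte gates reached the level of free RNA. In the B gate 12 of 15 were 2-fold higher, against 1.5% of all genes, but ICAM1, a leukocyte adhesion gene, was the only one of them at or above free RNA, at 0.306 and 0.793. In the T gate 9 of 13 were higher, against 1.98% of all genes, and none of these reached it. S100A9, for example, stood at 0.00101 and 1.40 in B cells, below the 5.24 of free RNA on day 1.

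**Figure D3:**
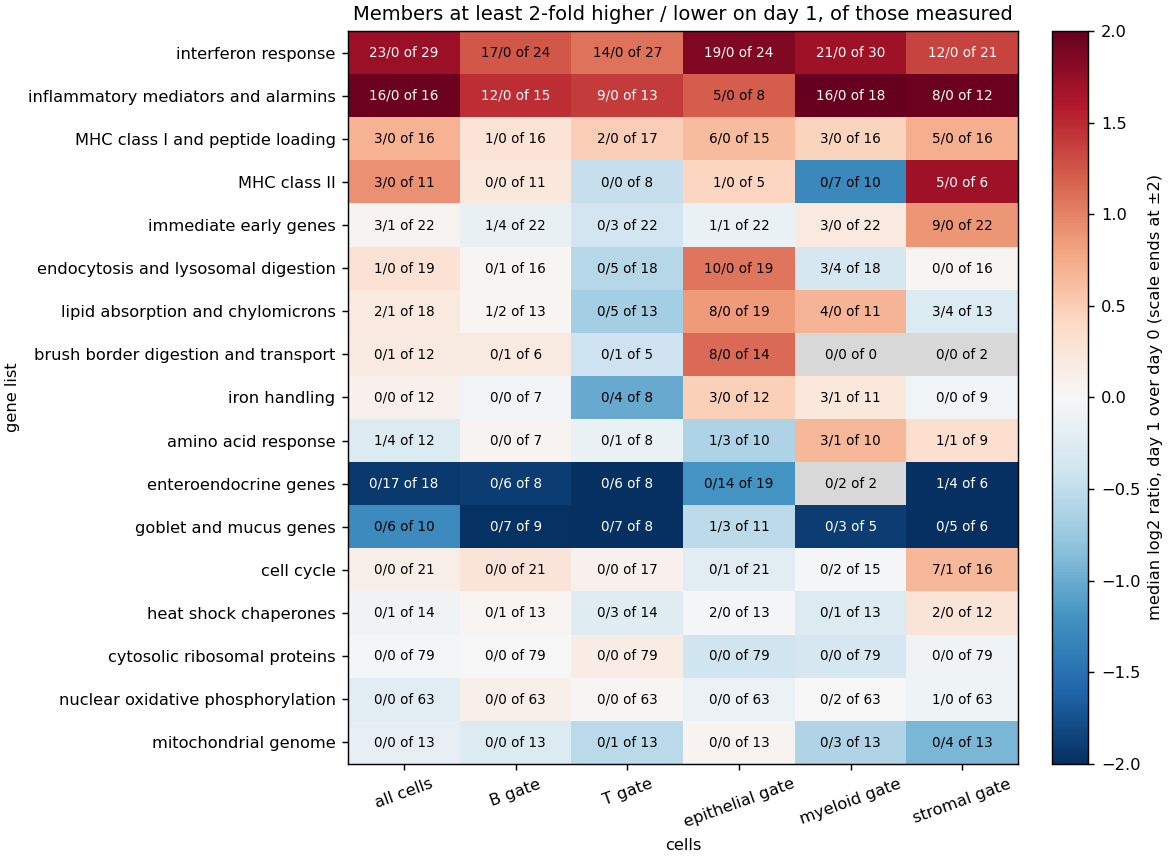
Rows are gene lists and columns are cell gates; each cell gives the number of measured members at least 2-fold higher and lower on day 1 and is coloured by their median log2 ratio, day 1 over day 0 (grey where fewer than 3 were measured). The interferon row is higher in all 6 columns, from 14 of 27 in the T gate to 23 of 29 over all cells, digestion and absorption lists are higher in the epithelial gate, and MHC class II is lower in the myeloid gate (7 of 10).

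In B cells BCL2A1, IL10 and interferon-response genes were among the higher genes. Of 6882 genes 103 were at least 2-fold higher (1.5%) and 174 at least 2-fold lower (2.53%), and the median log2 ratio was 0.02. With free RNA as a lower limit these counts were 40 and 9, and by means over cells they were 80 and 63. BCL2A1 (chromosome 7, 48887227 to 48897667), an anti-apoptotic gene of activated B cells, went from 1.34 to 4.92 (3.67-fold), and the share of B cells with a UMI from 33.7 to 71.8%, or from 12.5 to 34.8% after thinning. In epithelial cells that share was 1.28 and 6.95%. IRF1, an interferon-induced transcription factor, went from 0.639 to 2.08 (3.26-fold) and IL18BP, a decoy that binds interleukin-18, from 0.689 to 1.72 (2.49-fold). IL10, which encodes an anti-inflammatory cytokine, went from 0.557 to 1.38 (2.48-fold), with UMIs in 10.3 and 23.0% of B cells against 0.49 and 1.16% of T cells. With thinning the log2 ratios of IL18BP and IL10 were 0.85 and 0.96, under 2-fold. CCR7, which guides lymphocytes to T cell zones, went from 2.02 to 4.17, a ratio of 2.06 that was under 2-fold in 4 of the 10 alternatives. EPSTI1, an interferon-induced gene, NPM3, a nucleolar chaperone gene, ACAT2, an acetyl-CoA acetyltransferase gene, and BHLHE40, a repressor of transcription, were 2.13- to 2.36-fold higher, and BHLHE40 was under 2-fold with thinning, at a log2 ratio of 0.97.

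Among the genes lower in B cells, KLF2 (chromosome 2, 61270733 to 61273037), the factor that holds lymphocytes quiescent and in circulation, went from 10.2 to 4.33 (2.35-fold lower), with UMIs in 82.2 and 64.2% of cells. FOS, a stress-induced immediate early gene, went from 7.60 to 3.67 (2.07-fold lower), and was within 2-fold with thinning and with TMM scaling, at log2 ratios of -0.90 and -0.99. Among genes with a mean level of at least 0.5 and at or above free RNA, the next 10 by ratio stayed within 2-fold. VIM, the intermediate filament vimentin, was the first of these, at 3.19 and 1.72 (1.86-fold lower), and it passed 2-fold in 4 of the 10 alternatives, with log2 ratios of -1.08 to -1.50. Of 22 immediate early genes 4 were 2-fold lower and 1 was higher, where 2.53% and 1.5% of all genes of the gate were, and at or above free RNA these counts were 2 and 0. Of 18 apoptosis and survival genes BCL2A1 alone was higher. Most antigen receptor and presentation genes stayed within 2-fold: CD79B stood at 8.07 and 8.46, CD74 at 40.3 and 43.0 and JCHAIN, the joining chain of secreted antibody, at 0.584 and 0.556. None of 11 MHC class II genes and 1 of 23 B cell receptor and B cell genes (CCR7) passed 2-fold. Of 16 genes of MHC class I and peptide loading 1 was higher and none lower.

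In T cells the costimulatory receptor gene TNFRSF4 was among the higher genes and CCL5 among the lower ones, while most members of the T cell lists stayed within 2-fold. Of 7189 genes 142 were at least 2-fold higher (1.98%) and 463 at least 2-fold lower (6.44%), with a median log2 ratio of -0.11, and 8 of 9 epithelial marker genes were among the lower ones. At or above free RNA the counts were 88 and 110. TMM scaling shifted all log2 ratios of this gate by 0.19 and gave 236 higher and 301 lower. TNFRSF4 (chromosome 6, 63523850 to 63526672), which encodes the costimulatory receptor OX40 of activated helper and regulatory T cells, went from 0.109 to 1.62 (14.9-fold), with UMIs in 3.70% of T cells on day 0 and 30.8% on day 1 (1.36 and 12.8% after thinning). In B cells it had no UMI on day 0 and UMIs in 0.437% of cells on day 1. TNFRSF18, its neighbour in function, which encodes GITR, went from 0.353 to 1.28 (3.62-fold). LTB, a lymphotoxin gene of lymphoid organ formation, went from 2.34 to 6.80 (2.91-fold), S100A4, a motility protein gene of memory T cells, from 1.97 to 6.55 (3.33-fold), and COX17, a copper chaperone gene of cytochrome oxidase, from 1.58 to 5.97 (3.78-fold). BATF, a transcription factor of effector T cells, was 2.83-fold higher, a direction that reversed when cells were thinned before gating. CD4 was at 0.154 and 0.325, CD28 at 0.0951 and 0.221 and IL2RA, a chain of the interleukin-2 receptor, at 0.384 and 0.825, ratios of 2.12, 2.32 and 2.15. They were the 3 higher members among 23 T cell receptor and signalling genes, and CD96 was the 1 lower member. By means over cells 1 member was higher and 1 lower.

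Genes of tissue-resident and cytotoxic cells were among the lower ones in the T gate. CCL5 (chromosome 12, 39652731 to 39659121), a chemokine stored by cytotoxic T cells, went from 78.4 to 20.5 (3.82-fold lower), with UMIs in 58.3 and 22.6% of T cells against 11.8 and 9.87% of B cells. KIT, a stem cell factor receptor also carried by mast cells and innate lymphocytes, went from 0.968 to 0.209 (4.64-fold lower), and FCER1G, a signalling chain of innate-like T cells, from 3.19 to 1.32 (2.41-fold lower). PIK3R1, a regulatory subunit of phosphoinositide 3-kinase, went from 7.19 to 2.56 (2.81-fold lower), IKZF2, the factor Helios, from 2.26 to 0.91 (2.49-fold lower) and CBLB, a ubiquitin ligase that restrains activation, from 1.40 to 0.574 (2.45-fold lower). CCR9, the gut-homing receptor for CCL25, PRF1, which encodes perforin, and ZNF683, a residency factor, were 2.02- to 2.08-fold lower. Of 20 cytotoxic and tissue T cell genes 4 were 2-fold lower and 1 was higher, where 6.44% and 1.98% of all genes of the gate were. The median log2 ratio of the list was -0.25. The higher member was IFNG, at 0.0367 and 0.165 (4.5-fold). ITGAE, the integrin that binds epithelium, at 1.03 and 0.539, did not pass, and GZMB, a granzyme gene, was at 1.84 and 2.14. By means over cells 7 members were lower and 1 higher, and with TMM scaling 1 was lower and 1 higher. The share of helper, cytotoxic and innate-like cells within the gate and the level within each of them cannot be told apart here.

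**Figure D4:**
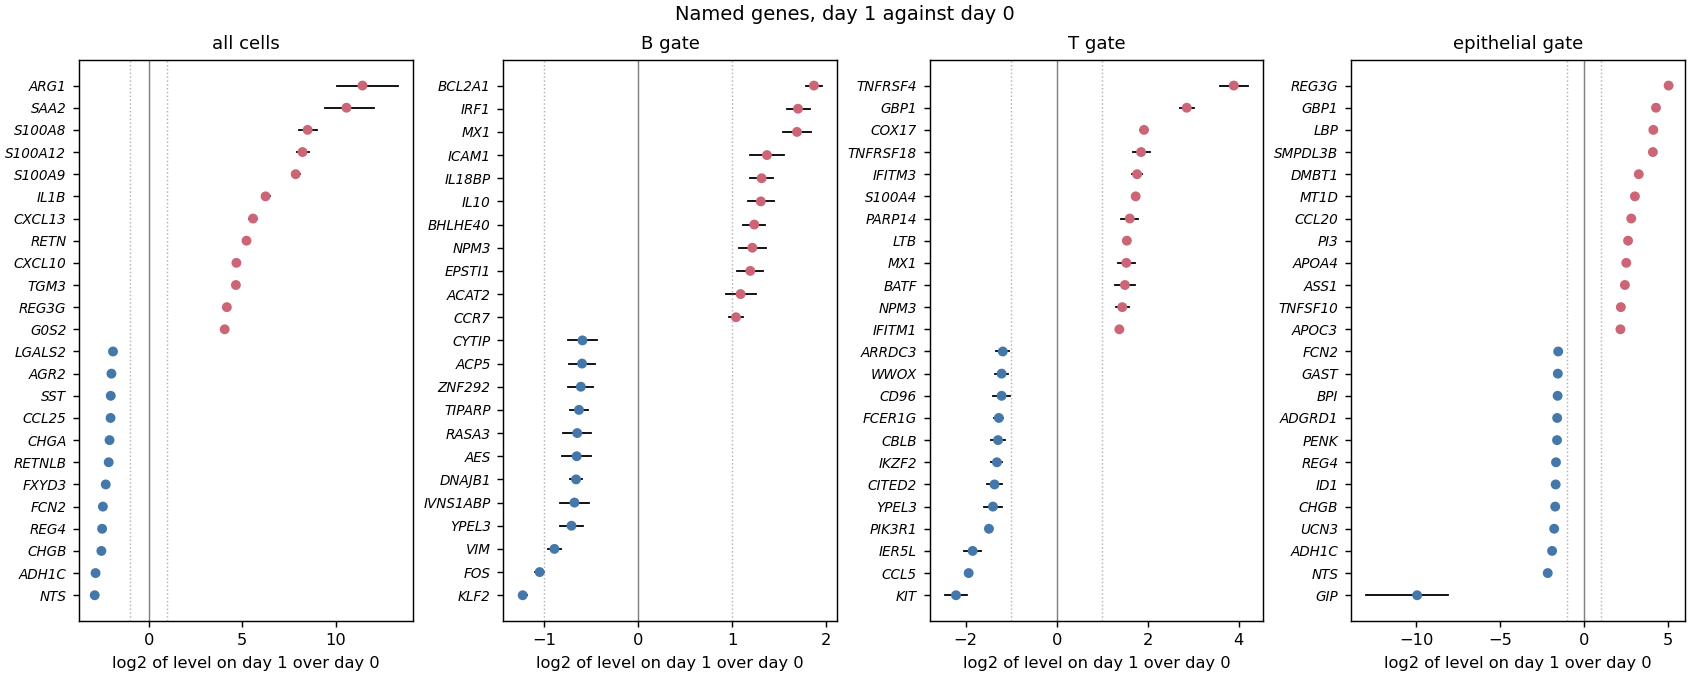
Log2 of the level on day 1 over day 0 for the highest and lowest named genes over all cells and in the B, T and epithelial gates; lines are exact 95% intervals for counting error, hidden by the point where narrow, and dotted lines mark 2-fold. Scales differ between panels: B cell ratios stay between -1.23 and 1.87, whereas REG3G reaches 5.06 in epithelial cells and ARG1 11.44 over all cells.

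Epithelial cells showed the largest number of higher genes among the B, T and epithelial gates, 460 of 7999 (5.75%), with 121 at least 2-fold lower (1.51%) and a median log2 ratio of 0.13. Genes with known parts in defence were among the highest by ratio, although of 6 measured members of the list of antimicrobial and oxidant defence 2 were higher, 1 was lower and 3 passed in neither direction, with a median log2 ratio of 0.40. REG3G went from 0.962 to 32.1 (33.4-fold), with UMIs in 7.68 and 62.1% of epithelial cells, or 2.90 and 39.8% after thinning, against 0.945 and 12.1% of B cells. LBP, which binds bacterial lipopolysaccharide, went from 0.0865 to 1.54 (17.7-fold), SMPDL3B, a membrane phosphodiesterase gene that damps Toll-like receptor signals, from 0.281 to 4.90 (17.4-fold), and DMBT1, a mucosal scavenger receptor gene that binds bacteria, from 0.429 to 4.16 (9.71-fold). CCL20, which draws CCR6-bearing lymphocytes and dendritic cells to follicles, went from 1.90 to 13.5 (7.12-fold), with UMIs in 18.8 and 67.3% of cells. PI3, an elastase inhibitor gene, was 6.23-fold higher, with 39.5% of its UMIs on day 1 in 5 cells. It had UMIs in 147 of 2655 cells on day 0 and in 87 of 964 on day 1. TNFSF10, the death ligand TRAIL, was 4.62-fold higher. TNFAIP3 and BIRC3, which are target genes of NF-kappaB signalling, went from 0.610 to 2.01 and from 1.64 to 5.89 (3.29- and 3.58-fold). MT1D, a metallothionein gene, was 8.27-fold higher. PLA2G2A, a secreted phospholipase that kills bacteria, was the lower member of the antimicrobial list, at 0.183 and 0.0434 (4.21-fold lower). Defence genes also stood among the 12 lowest named genes of the gate. BPI went from 0.807 to 0.272 (2.96-fold lower), with 48.3% of its UMIs on day 0 in 5 cells, and FCN2 from 33.5 to 11.6 (2.89-fold lower).

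Some of the genes for taking up and breaking down milk were higher in the same cells. Of 19 genes for endocytosis and lysosomal digestion 10 were at least 2-fold higher and none lower, against 5.75% and 1.51% of all genes of the gate, and the others passed in neither direction. LGMN, the lysosomal protease legumain, went from 3.99 to 12.4 (3.11-fold), PSAP, a precursor of sphingolipid activators, from 1.88 to 6.11 (3.24-fold) and CTSB, the protease cathepsin B, from 2.03 to 4.82 (2.38-fold). The endocytic adaptor DAB2, at 5.10 and 10.2, had a ratio of 1.99, and FCGRT, the neonatal Fc receptor that carries antibody across cells, stood at 6.57 and 5.81. Of 14 brush border genes 8 were higher and none lower, among them the peptidases MEP1B, at 2.22 and 7.84 (3.54-fold), and ANPEP, at 3.24 and 10.2 (3.15-fold), and the amino acid transporter subunit SLC3A1, at 0.0767 and 0.281 (3.66-fold). MGAM, the maltase, was at 0.111 and 0.0944.

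Of 19 genes for lipid absorption 8 were higher and none lower, against 5.75% and 1.51% of all genes of the gate. APOA1 went from 22.8 to 68.0 (2.98-fold), APOA4 from 0.731 to 4.24 (5.79-fold), APOC3 from 0.504 to 2.29 (4.54-fold) and MTTP, which loads lipid onto nascent chylomicrons, from 1.15 to 2.94 (2.55-fold). APOB, the scaffold of the chylomicron, was 3.33-fold higher. For APOC3, 39.4% of the UMIs on day 1 lay in 5 cells, and its log2 ratio was 0.86 with thinning, under 2-fold. FABP6 went from 12.6 to 28.4 (2.26-fold), whereas FABP1, the liver-type fatty acid-binding protein, was at 7.80 and 4.55. ASS1, a urea cycle enzyme used for arginine synthesis in neonatal gut, went from 1.13 to 6.19 (5.47-fold), and 7 other arginine pathway genes stayed within 2-fold. SLC40A1 and HEPH, which export iron from enterocytes, were 2.35- and 2.03-fold higher.

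Of 10 amino acid response genes 3 were lower and 1 was higher, of 13 heat shock chaperone genes 2 were higher and none lower, and of 18 genes of folding and stress in the endoplasmic reticulum 1 was higher and none lower, where 5.75% of all genes of this gate were higher and 1.51% lower. The last of these counts is near that background. PHGDH, the first enzyme of serine synthesis, and ATF5, a stress factor, went from 0.326 to 0.0333 and from 0.780 to 0.129 (9.79- and 6.03-fold lower). ID1, a target gene of bone morphogenetic protein signals, went from 4.41 to 1.37 (3.21-fold lower). Of 10 crypt and stem genes 2 were higher, 1 was lower and 7 passed in neither direction, with a median log2 ratio of -0.005. The higher ones, OLFM4 and SPINK1, went from 2.64 to 9.42 and from 1.79 to 5.93 (3.57- and 3.32-fold). The lower one, the stem cell factor ASCL2, was at 0.228 and 0.108 (2.11-fold lower). None of 79 ribosomal protein genes passed 2-fold, with a median log2 ratio of -0.40 in this gate.

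**Figure D5:**
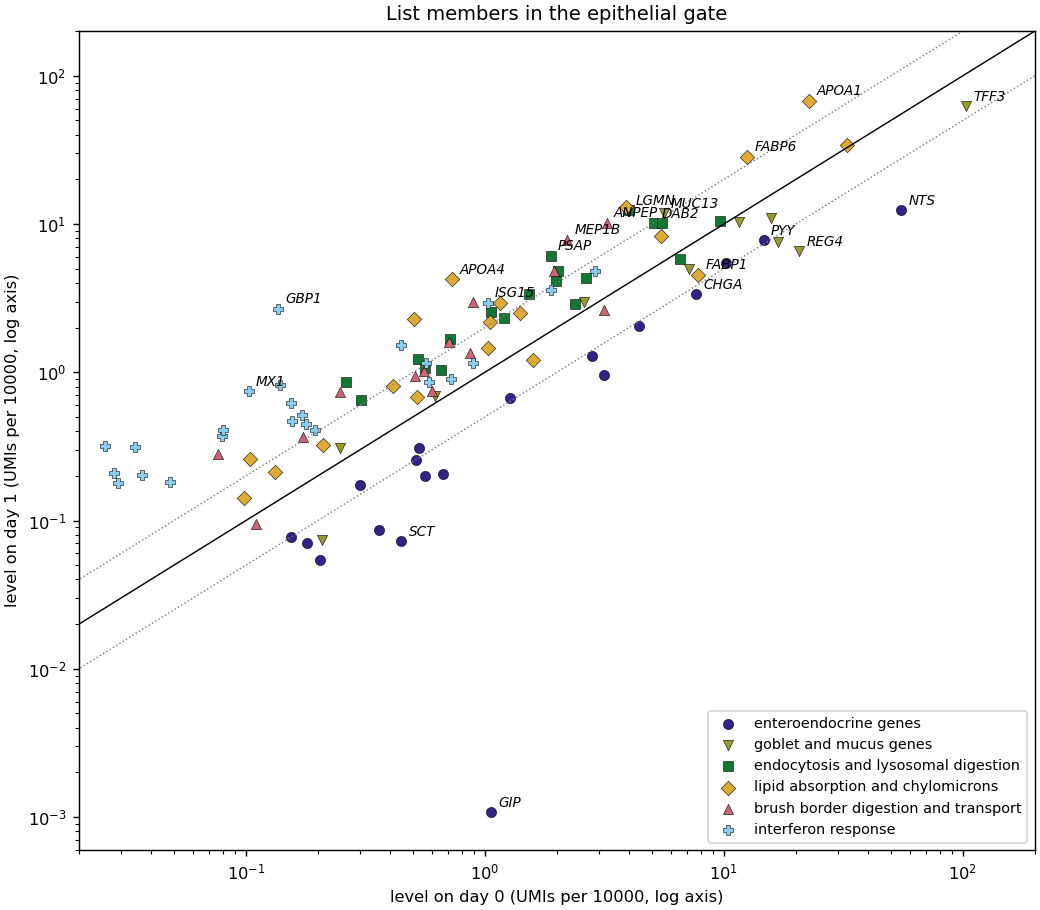
Level in the epithelial gate on day 0 (horizontal) and day 1 (vertical), in UMIs per 10000 on log axes, for the members of 6 gene lists; the solid line is equality and dotted lines mark 2-fold. Lysosomal, lipid, brush border and interferon genes lie on or above equality with few exceptions such as FABP1, and the 19 enteroendocrine genes lie below it, with GIP at 0.00107 on day 1.

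Of 19 enteroendocrine genes 14 were at least 2-fold lower in the epithelial gate and none higher, where 1.51% of all genes were lower. NTS (chromosome 5, 96261299 to 96272947) went from 55.2 to 12.4 (4.45-fold lower). After thinning, the share of epithelial cells with an NTS UMI was 10.8% on day 0, close to the 10.6% of B cells, so that share is read as background. GIP, which encodes an incretin hormone, had 4098 UMIs on day 0 and 2 on day 1, a ratio of 0.00101. Its counting interval was 0.000122 to 0.00365, but 99.1% of the UMIs of day 0 lay in 5 cells. With thinning before gating its log2 ratio was 2.69, a value set by the floor of 3 counts on day 1. That value shows no change of direction. CHGB, a granule protein gene, UCN3, a stress peptide gene, PENK, an opioid peptide precursor, and GAST, which encodes gastrin, were 2.93- to 3.41-fold lower. Without the 5% of cells with the most UMIs none of these passed 2-fold, with log2 ratios of -0.78, -0.87, -0.62 and -0.53, and PENK was at -0.36 with thinning. PYY and SST stood at 14.7 and 7.76 and at 10.2 and 5.42 and did not pass 2-fold.

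The gate was then divided by secretory genes, a choice made after seeing the data. Cells with at least 2 UMIs of CHGA and CHGB were 613 of 2655 (23.1%, 21.5 to 24.7%) on day 0 and 114 of 964 (11.8%, 9.85 to 14.0%) on day 1. Several endocrine genes stayed within 2-fold in these cells: PYY stood at 58.8 and 69.0, GCG, the glucagon and GLP-1 precursor, at 8.17 and 12.3, TPH1, the enzyme of serotonin synthesis, at 3.88 and 4.67, PCSK1, a prohormone convertase, at 3.70 and 3.76 and INSM1, an endocrine transcription factor, at 1.99 and 2.31. NTS was at 304 and 96.5 (3.15-fold lower). Its UMIs were in 43.1 and 13.2% of these cells, against 35.1 and 8.67% of mucus cells and 36.9 and 8.29% of the remaining cells, so most of that share is at the background of the gate. SCT, which encodes secretin, was at 2.37 and 0.642 (3.69-fold lower) and SST at 71.5 and 39.7. In the remaining cells, under the cuts for the endocrine and mucus groups, 8 of 9 enteroendocrine genes were 2-fold lower and 1 was higher. Of all genes of these cells 1.15% were lower and 7.16% higher. PYY, for example, stood at 10.3 and 4.54 and GCG at 5.11 and 1.75. These cells held 12689 GCG UMIs on day 0, against 4261 in the cells with CHGA or CHGB. For PYY the same counts of day 0 were 25494 and 30670. Endocrine cells under the cut may lie in this group, and their part in its values was not tested. The higher member was SST, at 0.675 and 3.92, with UMIs in 4.6% of these cells on day 0 and 3.29% on day 1. In the cells with CHGA or CHGB, GIP had 4072 UMIs on day 0 and none among the 114 cells of day 1.

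Mucus cells, with at least 3 UMIs of MUC2, CLCA1 and FCGBP, were 542 (20.4%) and 150 (15.6%) of the gate. Their medians were 8238.5 UMIs on day 0 and 17933 on day 1, under the same cut. Of 11 goblet and mucus genes measured in the whole epithelial gate 3 were 2-fold lower and 1 was higher, where 1.51% and 5.75% of all genes were. In the mucus cells REG4 went from 73.1 to 18.3 (3.99-fold lower), AGR2 from 72.1 to 30.2 (2.39-fold lower) and ATOH1, the factor that specifies secretory cells, from 0.869 to 0.309 (2.81-fold lower), while SPDEF, a transcription factor of goblet cells, at 2.63 and 2.95, TFF3, the trefoil peptide of mucus, at 447 and 268, and MUC13, a membrane mucin, at 4.84 and 9.39, stayed within 2-fold. REG3G went from 0.344 to 34.5 in these cells (100-fold), with UMIs in 5.35 and 80.0% of them, from 0.533 to 14.2 in endocrine cells (26.7-fold) and from 1.26 to 33.0 in the remaining 1500 and 700 cells (26.1-fold). Genes named above for lipid and arginine handling were also higher in the mucus cells. APOA4 had UMIs in 12.5 and 45.3% of them and ASS1 in 14.6 and 54.7%. The parts of depth and of RNA from other epithelial cells in the values of the mucus cells were not tested. In the remaining cells the digestive and absorptive lists were counted again. Of 7726 genes 553 were 2-fold higher (7.16%) and 89 lower (1.15%), beside which 10 of 20 lysosomal, 6 of 19 lipid and 8 of 15 brush border genes were 2-fold higher, and 1 brush border gene was lower.

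In stromal cells the chemokine genes CXCL2, CCL2, CCL19 and CXCL13 were higher on day 1 and CXCL14 was lower. Of 8624 genes 566 were at least 2-fold higher (6.56%) and 223 at least 2-fold lower (2.59%), on 278 and 401 cells. Of 12 genes of the inflammatory list 8 were higher and none lower, and 5 of the 8 were at or above free RNA. In the same cells 9 of 22 immediate early genes were higher, with a summed level of 61.5 and 115, and the 13 mitochondrial genes summed to 828 and 444, of which 4 were lower, and their part in these differences was not tested. CXCL2, an attractant of neutrophils, went from 0.165 to 4.79 (29.0-fold), CCL2, an attractant of monocytes, from 5.35 to 21.9 (4.09-fold), and CCL19, the ligand of CCR7 made by T cell-zone stroma, from 0.588 to 15.5 (26.3-fold), with 33.4% of its UMIs on day 1 in 5 cells. CXCL13 in this gate went from 1.14 to 15.0, and IL6, which encodes an inflammatory cytokine, had 0 and 67 UMIs. GREM1, a bone morphogenetic protein antagonist made by crypt-base stroma, went from 0.0928 to 2.13 (23.0-fold), with 43.1% of its UMIs on day 1 in 5 cells. PLA2G2D, a phospholipase gene of lymphoid stroma, had no UMI on day 0 and 207 on day 1, at least 33.5-fold higher, with 48.3% of its UMIs in 5 cells, and CLEC3B had 3 and 282 UMIs, 87.9% of the latter in 5 cells. CXCL14 went from 49.4 to 16.7 (2.96-fold lower) and PTN, a heparin-binding growth factor gene, from 19.9 to 9.28 (2.14-fold lower), while TIMP1, an inhibitor of matrix proteases, went from 2.85 to 9.09 (3.19-fold higher). The collagen gene COL1A2 was at 24.5 and 25.1. Of 5 endothelial marker genes measured in this gate 4 were 2-fold higher on day 1, with a summed level of the list of 2.24 and 4.22, and the part of endothelial cells in the gate was not tested.

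The later libraries held mostly B cells and 21, 10, 48 and 1 myeloid cells, and their levels are given as a description. S100A9 over all cells stood at 0.0548, 0.0194, 0.145 and 0.000316 on days 3, 7, 14 and 21 and CXCL10 at 0.234, 0.171, 1.10 and 0.102. Within the few myeloid cells of days 3, 7 and 14, S100A9 stood at 23.9, 42.9 and 48.8, ARG1 at 3.58, 2.36 and 9.83 and RETN at 26.8, 20.5 and 1.21. REG3G in the epithelial gate stood at 0.943 on day 3, 134 on day 7 and 306 on day 14, on 87, 179 and 27 cells. TNFRSF4 in the T gate stood at 1.41, 3.95, 2.36 and 3.26, and CCR7 in the B gate at 0.628, 0.357, 0.134 and 0.0634, on days 3, 7, 14 and 21.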

How the data were processed

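Single ileal cells of piglets were profiled by droplet-based 3′ RNA sequencing with molecular identifiers (UMIs), 1 library per age. The deposited values were raw counts of UMIs per gene and barcode, made by the authors with Cell Ranger 3.1.0 and STAR on susScr11 according to the submitters' processing notes. All listed barcodes were in these matrices, so cells were selected here as barcodes with at least 1000 UMIs and 500 genes, and doublets were kept, with no caller run. All 20648 gene symbols matched the RefSeq table of assembly Sscrofa11.1, from which coordinates were taken.

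Counts were summed over cells and expressed per 10000 UMIs with Python 3.11.15, NumPy 2.4.6, pandas 2.3.3 and SciPy 1.17.1. Genes with a mean of the levels on both days of at least 0.1 entered. With 1 library per age no test was possible, and a gene was called when its level differed at least 2-fold. Intervals (95%) were exact: Clopper-Pearson for shares, conditional binomial for ratios of levels. They cover counting error only, not differences between animals or preparations. A library with 0 UMIs was set to a floor of 3 counts. Cells were put in gates by summed UMIs of marker genes, as given with the results. Barcodes with at most 100 UMIs gave the level of free RNA.

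Named genes were the 12 highest and 12 lowest ratios in all cells and in each of the B, T and epithelial gates (6 each in the myeloid and stromal gates), among genes with a symbol, a mean level of at least 0.5, at least 20 cells with a UMI where higher and, inside gates, a level there at or above that of free RNA, plus members of the gene lists. Members and lists were chosen with earlier results of these data known. The counting and the gates were tested on simulated data. Alternatives included other limits on cells, thinning of each cell to 1000 UMIs, TMM scaling (edgeR 4.0.16, R 4.3.3), means over cells, other filters on low levels and stricter gates. Subtraction of free RNA, the split of the epithelial gate by secretory genes, another myeloid gate and leaving out shared barcodes were chosen after seeing the data. A few genes that the rule or the lists would name are not reported here.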

Additional observations from a re-analysis of the deposited data

How the results depend on the processing

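No paired analysis was possible because each age had 1 library and no replicate number. Of 960 values of 96 named genes and gates under the alternatives, 957 kept their direction and 930 their side of 2-fold. When each cell was thinned to 1000 UMIs before gating, the log2 ratio of BATF in T cells became -0.28. In epithelial cells that of GIP became 2.69 and that of BPI, a bactericidal protein gene, 0.37. The GIP value, counted among those that turned, is set by the floor of 3 counts on day 1 and shows no change of direction. BPI had UMIs in 73 and 14 cells of the gate before thinning, so its value rests on few cells. Counts over all cells (327 higher, 199 lower) became 208 higher with thinning, 211 higher by means over cells, 447 lower without the 5% of cells with the most UMIs, 1777 and 1642 without a filter on low levels, and 54 and 42 at a mean level of at least 1. B cell counts (103 and 174) became 243 and 270 with thinning, 685 and 2396 without the filter, 12 and 20 at a level of at least 1 and 40 and 9 at or above free RNA. The B cell count of lower genes was 106 without the 5% of cells with the most UMIs, 63 by means over cells and 66 with free RNA subtracted. T cell counts (142 and 463) became 236 and 301 with TMM scaling, 1352 and 2754 without the filter, 21 and 51 at a level of at least 1 and 88 and 110 at or above free RNA, with 361 higher after thinning, 233 higher with free RNA subtracted and 294 lower by means over cells. Epithelial counts (460 and 121) became 1210 and 889 with thinning, 2291 and 1305 without the filter, 111 and 18 at a level of at least 1, and 202 lower by means over cells. The B cell share difference (9.36 points) was 1.95 with thinning and 4.98 with stricter gates, and the epithelial one (-16.1) was -18.9 at 2000 UMIs, -17.5 under 25% mitochondrial UMIs, -4.87 with thinning and -13.5 with stricter gates. With thinning the B gate held 6.43 and 8.39% of cells and the epithelial gate 6.24 and 1.37%. Filters change the number of genes entered and thinning the number of cells in a gate, and the cause of the other shifts was not tested. Leaving out shared barcodes moved no count of genes by over 1.5 times.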

Other observations

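IL22, which encodes a cytokine of innate lymphocytes that drives epithelial defence genes, lay outside the B, T and epithelial results and was picked out from the innate lymphoid marker list after its values were seen. Over all cells it went from 262 UMIs in 68 cells on day 0 to 4039 UMIs in 255 cells on day 1, a level of 0.0349 and 0.583 (16.7-fold higher, counting interval 14.7 to 19.0), and stood at 0.338 and 0.123 on days 3 and 7. KLRB1, a receptor gene of innate-like lymphocytes, was at 0.406 and 0.459. HBB, the only one of 9 erythroid markers in the files to pass the filter, was at 0.0271 and 0.266 over all cells, below its level in free RNA.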
